A study of Mus musculus with 12 samples.

Results

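The set described here holds 6 channel pore genes and 1 accessory subunit gene, 7 of the 46403 genes in the count table of 12 mouse kidney libraries. They are Kcnj1, Kcnj3, Kcnj8, Kcnj10, Kcnj15 and Kcnj16 of the inward rectifier (Kir) family, and Kcne1. The set was called inward rectifier potassium channels, and for Kcne1 the symbol does not bear that name out: it encodes a single-span subunit that joins the voltage-gated channel Kcnq1. Rows were taken by gene symbol, and all 7 passed the filter on low counts. The genes were chosen by their TMM-scaled levels in wildtype, Myc and Grhl2KO_Myc, so those levels and their differences are a description, with no test.

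The whole right kidney of untreated mice gave the polyadenylated RNA for each library. Wildtype libraries (n = 5) came from R26StopFLMYC; Grhl2 flox/flox mice, which have a floxed Grhl2 gene and a MYC transgene behind a stop cassette. The Myc group (n = 3) carries the genotype label Myc overexpression. The labels do not state its cross or its Grhl2 alleles, and its library identifiers contain HET. The Grhl2KO_Myc group (n = 4) carries the label Grhl2 knockout; Myc overexpression, and its parents were HoxB7-Cre; Grhl2flox/+ and R26StopFLMYC; Grhl2flox/flox mice. HoxB7-Cre is known to act in the ureteric bud and the collecting ducts that form from it, which do not include the nephron cells. Where it acted in these kidneys was not measured. The labels state no age. They also do not say whether replicate libraries stem from different animals, so every p below measures only the spread between these libraries.

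Inward rectifiers are tetramers that pass potassium more readily into the cell than out of it, and they hold the resting potential of many cell types. In the kidney tubule Kcnj1 secretes potassium into the urine across the luminal membrane, whereas Kcnj10, Kcnj15 and Kcnj16 serve the basolateral membrane, where Kcnj16 makes working channels only together with a partner. Kcnj8 is the pore of the ATP-sensitive channel of vascular smooth muscle and pericytes, and Kcnj3 is a subunit of channels that open on binding G proteins, best known from heart and brain.

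Total counts lay between 52973520 and 108164810 per library. Grhl2, the targeted gene, stood at 25.8 ± 2.04 CPM (read counts relative to library size, scaled by TMM; SD, n = 5) in wildtype, 29.9 ± 2.71 (n = 3) in Myc and 21.0 ± 2.78 (n = 4) in Grhl2KO_Myc. The Grhl2KO_Myc libraries lay between 18.5 and 24.3 CPM and overlapped the wildtype range of 23.9 to 29.3. Markers of the proximal tubule set 3 libraries of 2 genotypes apart. The 20 markers summed to 1671 to 1882 CPM in wildtype 4, Grhl2KO_Myc 3 and Grhl2KO_Myc 4, against 3375 to 6056 CPM in the other 9, and none was at 0. Grhl2KO_Myc 2 stood apart in 10 markers of the adrenal gland, at 48.2 against 6.10 to 10.3 CPM, and in 8 neuron markers, at 45.9 against 12.7 to 17.6 CPM. The entries Yam1, Rn18s-rs5 and Lars2, summed as a stand-in for ribosomal RNA, held 5.55% of the counts in Myc 1, against 0.160% to 0.581% elsewhere.

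Kcnj3 (ENSMUSG00000026824.11, chr2:55435970-55598145, plus strand, mm10) showed the widest difference between genotypes of the 7 genes. It was nearly silent in wildtype, at 0.126, 0.112, 0.0577, 0.0278 and 0.133 CPM in replicates 1 to 5, which rest on 7, 11, 4, 2 and 7 counts. The Myc libraries held 0.190, 0.115 and 0.149 CPM, and the Grhl2KO_Myc libraries 0.594, 0.946, 1.49 and 1.20 CPM from 46, 71, 140 and 131 counts. Every Grhl2KO_Myc library was above every library of both other groups, and Myc overlapped wildtype. Means were 0.0913 ± 0.0461 CPM in wildtype (SD, n = 5), 0.151 ± 0.0375 in Myc (n = 3) and 1.06 ± 0.382 in Grhl2KO_Myc (n = 4), an 11.6-fold ratio of Grhl2KO_Myc to wildtype and a 6.99-fold ratio to Myc. The fitted log2 fold changes were 3.54 (SE 0.38) over wildtype and 2.79 (SE 0.42) over Myc, and 0.75 (SE 0.45) for Myc over wildtype.

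Kcnj3 was highest in Grhl2KO_Myc 3 and 4, which are low in proximal tubule markers, yet lowest of all in wildtype 4, which is low in them as well. Without those 3 libraries the log2 fold change over wildtype was 2.84, with 0.770 ± 0.249 CPM (n = 2) against 0.107 ± 0.0340 (n = 4). The score of the neuron markers, their mean log2 CPM relative to all libraries, was 0.18, 2.27, -0.35 and -0.22 in Grhl2KO_Myc 1 to 4, -0.35 to -0.21 in wildtype and -0.43 to 0.01 in Myc. Replicates 1 and 2 were thus above every library of the other groups, and they held less Kcnj3 than replicates 3 and 4. The part of these markers in the level of Kcnj3 was not tested. A noncoding gene on the opposite strand, Gm26794, overlaps Kcnj3, and the library kit does not separate their reads.

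**Figure D1:**
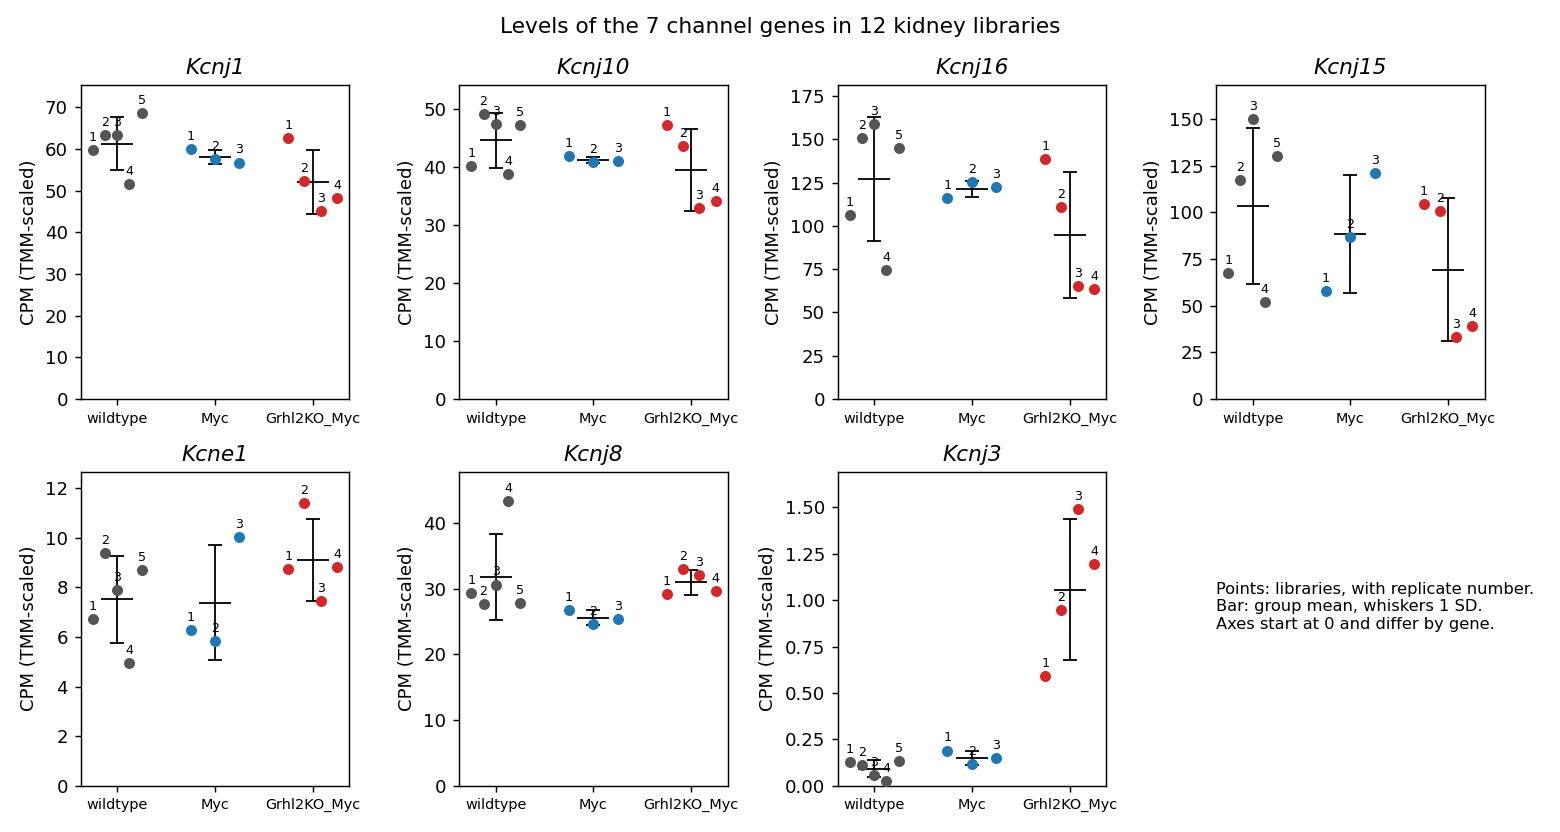
TMM-scaled CPM of the 7 channel genes (one panel each, y axis from 0) in the wildtype, Myc and Grhl2KO_Myc libraries, with a point per library and the group mean with its SD. Kcnj3 is the panel in which all 4 Grhl2KO_Myc libraries, at 0.594 to 1.49 CPM, sit above the other 8, whereas the tubule genes spread widely inside groups.

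The basolateral genes of the tubule had lower means in Grhl2KO_Myc, with ranges that overlapped in all 3 genotypes. Kcnj16 (ENSMUSG00000051497.15, chr11:110968033-111027968, plus strand) was at 106, 151, 159, 74.7 and 145 CPM in wildtype, at 116, 125 and 123 CPM in Myc and at 139, 111, 65.5 and 63.6 CPM in Grhl2KO_Myc. High and low libraries occurred in both wildtype and Grhl2KO_Myc, and the Myc libraries sat close together between them. Means were 127 ± 35.6, 121 ± 4.72 and 94.7 ± 36.6 CPM, and the log2 fold change of Grhl2KO_Myc over wildtype was -0.43 (SE 0.25). In whole tissue, fewer cells that express a gene and less RNA per cell cannot be told apart.

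Kcnj10 (ENSMUSG00000044708.5, chr1:172341210-172374085, plus strand), the partner that gives Kcnj16 its function in the distal tubule, varied less. Wildtype libraries held 40.3, 49.3, 47.5, 38.9 and 47.3 CPM, Myc libraries 41.9, 40.9 and 41.1 CPM, and Grhl2KO_Myc libraries 47.3, 43.6, 32.9 and 34.2 CPM. Only Grhl2KO_Myc 3 and 4 lay below all libraries of the other groups. The log2 fold change of Grhl2KO_Myc was -0.18 (SE 0.11) over wildtype and -0.06 (SE 0.12) over Myc. The ratio of Kcnj16 to Kcnj10 per exon length was 3.63, 4.21, 4.598, 2.64 and 4.21 in wildtype, 3.80, 4.20 and 4.10 in Myc and 4.03, 3.50, 2.73 and 2.55 in Grhl2KO_Myc. Its 3 lowest values were those of the libraries low in proximal tubule markers, 1 of wildtype and 2 of Grhl2KO_Myc.

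Kcnj15 (ENSMUSG00000062609.14, chr16:95257558-95300260, plus strand) was the most variable of the abundant genes. It reached 67.6, 117, 150, 52.0 and 130 CPM in wildtype, 57.9, 86.7 and 121 CPM in Myc and 104, 101, 33.3 and 39.1 CPM in Grhl2KO_Myc. All 3 genotypes overlapped, with means of 103 ± 41.8, 88.6 ± 31.8 and 69.3 ± 38.4 CPM and a log2 fold change of -0.58 (SE 0.40) between Grhl2KO_Myc and wildtype. Kcnj15 is overlapped by the antisense models Gm31641 and Gm49643, whose reads the kit does not separate from its own.

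Kcnj1 (ENSMUSG00000041248.9, chr9:32372493-32399197, plus strand), the luminal channel of the thick ascending limb and collecting duct, was steadier. It was at 59.7, 63.4, 63.3, 51.5 and 68.6 CPM in wildtype, at 60.01, 57.7 and 56.7 CPM in Myc and at 62.7, 52.2, 45.1 and 48.1 CPM in Grhl2KO_Myc. The last 2 of these were the lowest of the 12 libraries, and the groups overlapped. The log2 fold change of Grhl2KO_Myc was -0.24 (SE 0.096) over wildtype and -0.16 (SE 0.11) over Myc. The 10 principal cell markers had scores of -0.38 to -0.07 in Grhl2KO_Myc, against -0.05 to 0.15 in wildtype and 0.11 to 0.21 in Myc, although their summed level overlapped (736 to 880, 653 to 1010 and 801 to 929 CPM). The 10 markers of the thick ascending limb had scores of -0.32 to -0.0079, -0.29 to 0.25 and -0.14 to 0.20, and summed to 796 to 1072, 864 to 1482 and 1120 to 1396 CPM. No marker of either list was at 0, and their part in the level of Kcnj1 was not tested.

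Kcnj1, Kcnj10, Kcnj15 and Kcnj16 shared a further pattern that cut across the genotypes. For each of these 4 genes the 3 libraries low in proximal tubule markers were the 3 lowest of the 12, as they were for 6.43% of the 23742 genes tested. For Kcnj16 the highest of those 3 held 74.7 CPM and the lowest of the other 9 held 106 CPM. For Kcnj15 these values were 52.0 and 57.9 CPM, for Kcnj10 they were 38.9 and 40.3, and for Kcnj1 they were 51.5 and 52.2. Kcnj3, Kcnj8 and Kcne1 did not have it. Wildtype 4 and Grhl2KO_Myc 3 and 4 were also lowest in the thick ascending limb score, at -0.29, -0.32 and -0.32, with Myc 3 next at -0.14. In the score of 12 intercalated cell markers they were lowest at -0.68, -0.27 and -0.40, with Grhl2KO_Myc 2 next at -0.24. For principal cell and distal convoluted tubule markers wildtype 4, at 0.07 and -0.07, was above Grhl2KO_Myc 1, at -0.25 and -0.30. The part of any of these markers in the pattern was not tested.

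The differences between genotypes were smaller without those 3 libraries. The log2 fold change between Grhl2KO_Myc and wildtype was then -0.17 for Kcnj16, -0.18 for Kcnj15, -0.02 for Kcnj10 and -0.15 for Kcnj1. In a fit of all 12 libraries with the score of the proximal tubule markers as a covariate it was -0.13, -0.17, -0.07 and -0.14. Against Myc, leaving them out (2 Grhl2KO_Myc and 3 Myc libraries) gave 0.04 for Kcnj16, 0.21 for Kcnj15 and 0.13 for Kcnj10. With all libraries the values were opposite in sign, at -0.36 (SE 0.29), -0.36 (SE 0.45) and -0.06 (SE 0.12). With so few libraries no change of direction is read from them. For Kcnj1 leaving them out gave -0.02.

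**Figure D2:**
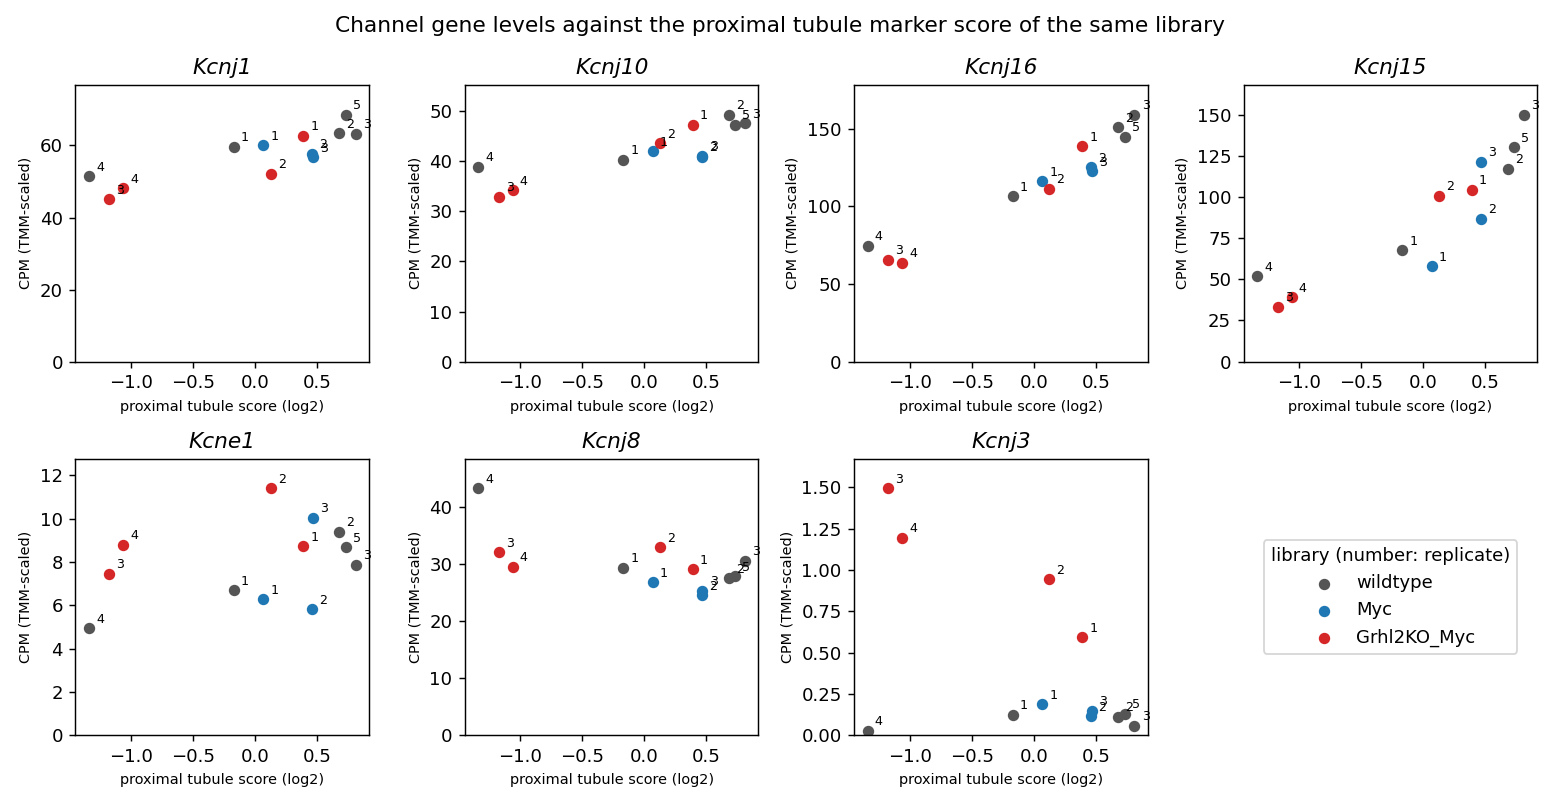
CPM of each channel gene (y axis, from 0) against the proximal tubule score of the same library (x axis, mean log2 CPM of 20 markers relative to all libraries), with points coloured by genotype and numbered by replicate. The 3 libraries at scores of -1.34 to -1.06 have the lowest Kcnj16, Kcnj15, Kcnj10 and Kcnj1, while Kcnj3 is highest in the 4 Grhl2KO_Myc libraries, at 1.49 and 1.20 CPM in the 2 with low scores and at 0.594 and 0.946 CPM in the other 2.

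Kcnj8 (ENSMUSG00000030247.9, chr6:142564837-142571614, minus strand), the vascular pore, was lower in Myc than in both other groups. Wildtype libraries held 29.4, 27.6, 30.6, 43.3 and 27.9 CPM, Myc libraries 26.8, 24.6 and 25.3 CPM, and Grhl2KO_Myc libraries 29.1, 33.0, 32.1 and 29.6 CPM. All 3 Myc libraries were below every other library, and Grhl2KO_Myc lay inside the wildtype range. The log2 fold change was -0.31 (SE 0.13) for Myc over wildtype, 0.28 (SE 0.13) for Grhl2KO_Myc over Myc and -0.04 (SE 0.12) for Grhl2KO_Myc over wildtype. Wildtype 4 was far above its group, and without the 3 libraries low in proximal tubule markers the value for Myc over wildtype was -0.18. The 12 smooth muscle and pericyte markers, Abcc9 among them, summed to 1191 to 1631 CPM in wildtype, 1374 to 1480 CPM in Myc and 1178 to 1503 CPM in Grhl2KO_Myc, ranges that overlapped. The 10 endothelium markers had scores of -0.12 to -0.0027 in Myc and -0.12 to -0.04 in Grhl2KO_Myc, below the 0.01 to 0.24 of wildtype, and summed to 888 to 955, 879 to 927 and 958 to 1098 CPM with none at 0. Their part in the level of Kcnj8 was not tested. Abcc9, the sulfonylurea receptor that assembles with Kcnj8, was at 50.03 ± 3.17 CPM in wildtype, 41.9 ± 4.91 in Myc and 44.0 ± 4.22 in Grhl2KO_Myc, and its libraries overlapped. By edgeR's quasi-likelihood test it was not called between Myc and wildtype (log2 fold change -0.26, SE 0.087, Benjamini-Hochberg adjusted p = 0.959) or between Grhl2KO_Myc and wildtype (-0.19, SE 0.080, adjusted p = 0.197).

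Kcne1 (ENSMUSG00000039639.7, chr16:92345982-92359468, minus strand) was present at 6.71, 9.40, 7.89, 4.94 and 8.69 CPM in wildtype, 6.28, 5.82 and 10.05 CPM in Myc and 8.74, 11.4, 7.46 and 8.81 CPM in Grhl2KO_Myc. The 3 groups overlapped, and Grhl2KO_Myc 2 was the highest library. Log2 fold changes were 0.27 (SE 0.21) over wildtype and 0.30 (SE 0.24) over Myc for Grhl2KO_Myc.

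Between Grhl2KO_Myc and wildtype the libraries of 1 of 7 genes did not overlap (Kcnj3, higher), as for 9.47% of all genes tested and 5.67% in that direction. Between Myc and wildtype it was 1 (Kcnj8, lower), against 3.57% and 1.34% in that direction, and between Grhl2KO_Myc and Myc 2 (Kcnj3 and Kcnj8, both higher), against 16.8% and 8.95% in that direction. The rule used these contrasts, so nothing is read from those counts. The median log2 fold change of the 7 genes was -0.08 for Myc over wildtype, -0.18 for Grhl2KO_Myc over wildtype and -0.06 for Grhl2KO_Myc over Myc, beside 0.00014, -0.0074 and 0.0023 for all genes tested. The 3 comparisons share libraries in pairs.

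Per kilobase of exon, which allows genes to be set beside each other, the order of levels in wildtype ran Kcnj16, Kcnj1, Kcnj15, Kcnj8, Kcnj10, Kcne1 and Kcnj3. Kcnj16 stood at 32.3 ± 9.05 CPM per kilobase (SD, n = 5), Kcnj1 at 18.8 ± 1.94, Kcnj15 at 15.4 ± 6.23 and Kcnj8 at 12.5 ± 2.58. Over the libraries, the range of Kcnj16 overlapped that of Kcnj1, Kcnj1 overlapped Kcnj15 and Kcnj15 overlapped Kcnj8. Within single libraries Kcnj16 was above Kcnj1 in 5 of 5 wildtype, 3 of 3 Myc and 4 of 4 Grhl2KO_Myc libraries. In wildtype Kcnj1 was above Kcnj15 in 4 of 5 libraries, and Kcnj15 above Kcnj8 in 3 of 5. Kcnj10 at 8.26 ± 0.872, Kcne1 at 2.36 ± 0.550 and Kcnj3 at 0.0175 ± 0.00884 were each separate from the gene above. Myc had the same order. In Grhl2KO_Myc, Kcnj8 at 12.1 ± 0.743 stood before Kcnj15 at 10.3 ± 5.72, with overlapping libraries, and Kcnj3 reached 0.203 ± 0.0732 and was still last. Of the summed CPM per kilobase of all Kir genes in wildtype, Kcnj16 made up 34.9% ± 4.68 and Kcnj1 20.9% ± 2.07, whereas Kcnj3 made up 0.0191% ± 0.00985 in wildtype and 0.306% ± 0.168 in Grhl2KO_Myc.

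**Figure D3:**
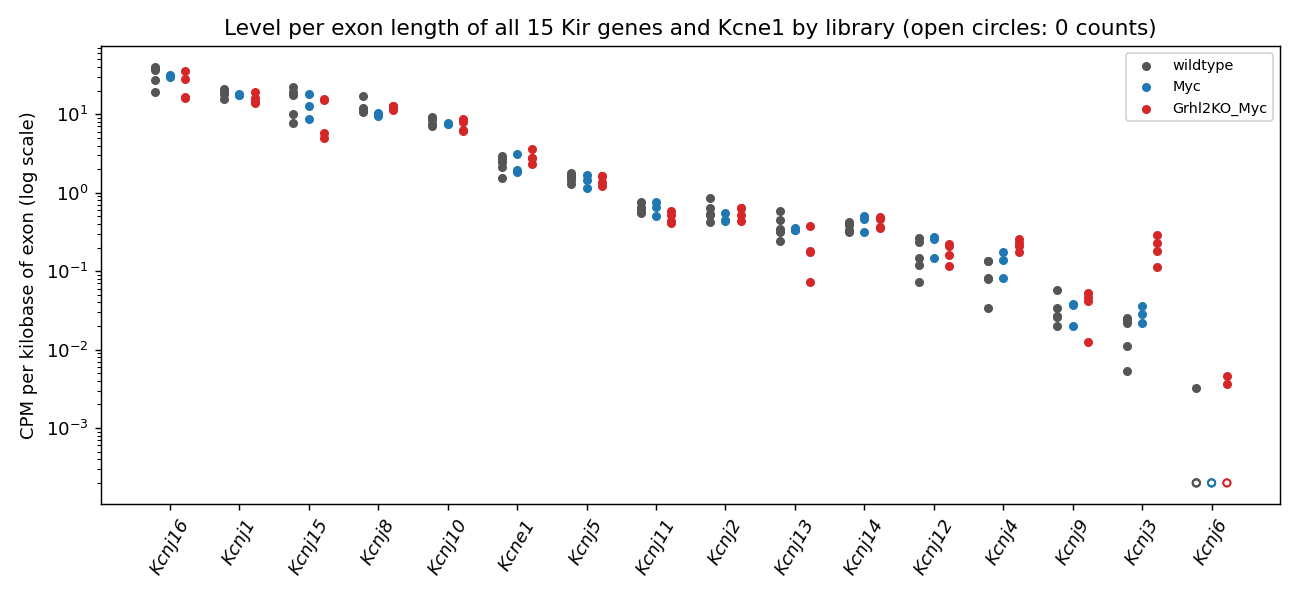
CPM per kilobase of exon (log axis) of all 15 Kir genes and Kcne1, ordered by level in wildtype, with a point per library coloured by genotype and open circles for 0 counts. Kcnj16, Kcnj1, Kcnj15, Kcnj8 and Kcnj10 lead, and Kcnj3, near the floor in wildtype at 0.0175, stands at 0.203 in Grhl2KO_Myc.

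Of the other 9 Kir genes 8 passed the filter, and per kilobase of exon these stood between Kcne1 and Kcnj3 in wildtype. Kcnj5, a G protein-gated partner of Kcnj3, was at 7.02 ± 0.816 CPM in wildtype, 6.39 ± 1.25 in Myc and 6.58 ± 0.889 in Grhl2KO_Myc. Kcnj9, another member of that G protein-gated group, was at 0.141 ± 0.0640, 0.137 ± 0.0443 and 0.165 ± 0.0764 CPM, and Kcnj6 had 1, 0 and 4 counts in all over the wildtype, Myc and Grhl2KO_Myc libraries. Kcnj3 was chosen by its levels in these groups, Kcnj6 did not pass the filter and Kcnj9 was near the floor. Nothing is therefore read about these 4 G protein-gated genes as a group. Kcnj2, a classic strong rectifier, was at 3.25 ± 0.895, 2.59 ± 0.332 and 3.03 ± 0.525 CPM. Kcnj11, the ATP-sensitive pore of pancreatic beta cells, had 0.742 ± 0.0945, 0.753 ± 0.150 and 0.574 ± 0.0952 CPM, Kcnj12 had 0.4655 ± 0.225, 0.616 ± 0.187 and 0.485 ± 0.132 CPM, and Kcnj14 had 0.984 ± 0.117, 1.124 ± 0.260 and 1.115 ± 0.177 CPM.

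None of those 8 passed edgeR's test in any comparison, which called 6.67% of all genes between Grhl2KO_Myc and wildtype, 0.842% between Grhl2KO_Myc and Myc and 0.00421% between Myc and wildtype. At an unadjusted p under 0.05 the counts were 2, 0 and 0, and DESeq2 and limma-voom each called 1 gene, Kcnj4, between Grhl2KO_Myc and wildtype (adjusted p = 0.0148 and 0.0369) and 0 in the other comparisons. The 2 were Kcnj4, at 0.467 ± 0.0770 CPM in Grhl2KO_Myc against 0.199 ± 0.0924 in wildtype with no overlap (log2 fold change 1.21, SE 0.34, adjusted p = 0.052), and Kcnj13, at 0.256 ± 0.161 against 0.491 ± 0.168 CPM with overlap (-0.94, SE 0.38, adjusted p = 0.168).

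**Figure D4:**
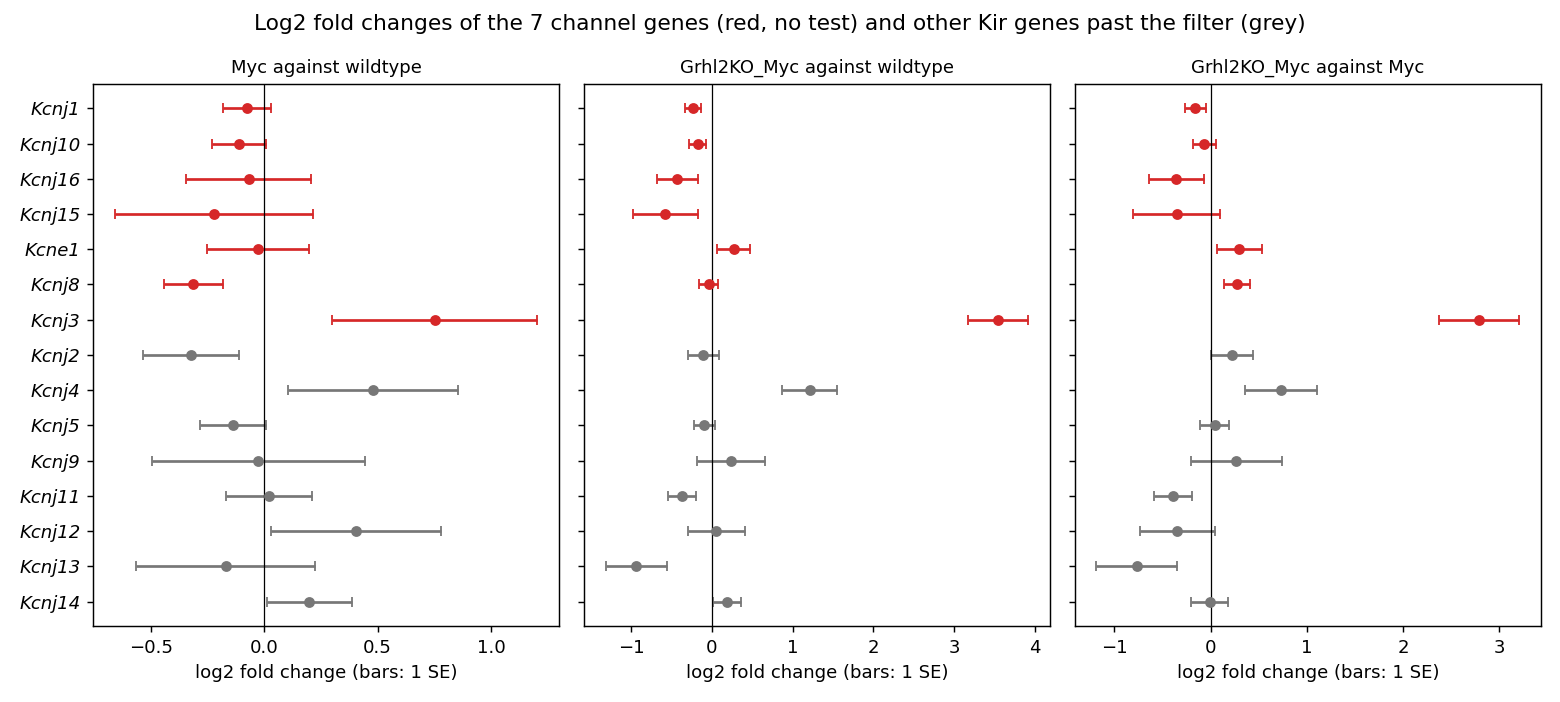
Log2 fold changes (x axis, points with bars of 1 SE) of the 7 channel genes in red and of the other Kir genes past the filter in grey, for the 3 comparisons. The x axes differ between panels. Kcnj3 stands out in both panels with Grhl2KO_Myc, at 3.54 and 2.79.

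Other potassium channel genes, partners and regulators of Kir channels, and salt transport genes were compared from 7 lists. They held 125 genes, of which 111 could be tested. Between Grhl2KO_Myc and wildtype 12 of the 111 were called, 6 higher and 6 lower, against 6.67% of all genes, 4.06% higher and 2.61% lower. DESeq2 called 21 and limma-voom 15, and the edgeR count was 7 without wildtype 1, 2 or 3 or Grhl2KO_Myc 3 or 4 and 28 without wildtype 4. With a term for Xist it was 6. Xist counts were high in 4 of 5 wildtype, 2 of 3 Myc and 1 of 4 Grhl2KO_Myc libraries, so the sexes were unevenly spread over the groups, and Grhl2KO_Myc 3 had neither high Xist nor the Y-linked gene Ddx3y. The median log2 fold change of the 111 genes was -0.12. Between Myc and wildtype edgeR, DESeq2 and limma-voom called 0 (7 at an unadjusted p under 0.05 by edgeR). Between Grhl2KO_Myc and Myc edgeR called 0 (27 at an unadjusted p under 0.05), DESeq2 9 and limma-voom 1, the small-conductance channel gene Kcnn2.

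Kcnq1, the pore that Kcne1 joins, rose in Grhl2KO_Myc while Kcne1 overlapped between groups. It was at 16.7, 17.0, 17.4, 15.6 and 17.8 CPM in wildtype, 18.4, 18.7 and 20.4 CPM in Myc and 23.8, 21.7, 22.8 and 21.7 CPM in Grhl2KO_Myc. All 4 Grhl2KO_Myc libraries lay above all others. The log2 fold change over wildtype was 0.41 (SE 0.059, edgeR adjusted p = 0.00164), and the call held under all 21 alternatives run. Over Myc it was 0.23 (SE 0.067) and did not pass (edgeR adjusted p = 0.147). Every Myc library was also above every wildtype library (log2 fold change 0.18, SE 0.064, edgeR adjusted p = 0.999). Kcnq1 was the 1 gene called of the 9 tested in its list of Kcne and Kcnq genes, whose median was 0.18. Of all genes 4.06% were called higher and 2.61% lower.

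Among 12 calcium-activated channel genes 3 rose and 0 fell between Grhl2KO_Myc and wildtype, beside 4.06% and 2.61% of all genes. The median of the list was nevertheless -0.21. Kcnn2, a small-conductance channel, was at 1.27 ± 0.145 CPM in wildtype and 2.66 ± 0.412 in Grhl2KO_Myc (log2 fold change 1.07, SE 0.15, edgeR adjusted p = 0.00126). Kcnmb2, a regulatory subunit of the large-conductance channel, was at 1.93 ± 0.188 and 3.91 ± 1.18 CPM (1.03, SE 0.18, adjusted p = 0.00594). Both were higher in all 4 Grhl2KO_Myc libraries and stayed called under the 21 alternatives. Their Myc means were 1.61 CPM for Kcnn2 and 2.15 for Kcnmb2. Kcnmb2 was at 5.10 and 4.75 CPM in Grhl2KO_Myc 3 and 4, which are low in proximal tubule markers, and at 2.84 and 2.96 CPM in replicates 1 and 2. Wildtype 4, also low in them, held 1.97 CPM, inside the 1.64 to 2.10 CPM of the other wildtype libraries. The log2 fold change of Kcnmb2 was 0.60 without the 3 libraries low in those markers (adjusted p = 0.0347). Kcnn4, the intermediate-conductance channel, was at 4.34 ± 0.759 and 6.34 ± 0.574 CPM (0.55, SE 0.13, adjusted p = 0.0256). Its call was lost without wildtype 1, 2, 3 or 5 or Grhl2KO_Myc 3 or 4, with adjusted p-values of 0.0579 to 0.0839, and with a term for Xist (0.124). In Myc Kcnn4 averaged 5.50 CPM and overlapped wildtype (0.34, SE 0.14, edgeR adjusted p = 0.999).

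Of 37 voltage-gated channel genes and their subunits 2 rose and 1 fell, beside 4.06% and 2.61% of all genes. The median of the list was -0.07. Kcnh7, a channel of the ether-a-go-go family, was at 14.2 ± 0.921 CPM in wildtype and 20.3 ± 1.95 in Grhl2KO_Myc (log2 fold change 0.51, SE 0.077, edgeR adjusted p = 0.00247). Its Myc mean was 16.9 CPM, with every Myc library above every wildtype library (0.25, SE 0.084, edgeR adjusted p = 0.959). Kcnip4, which encodes a channel-interacting protein, was at 1.16 ± 0.215 and 1.94 ± 0.259 CPM (0.73, SE 0.15, adjusted p = 0.0156). Its mean in Myc was 1.17 CPM. With a term for Xist the Kcnip4 call was lost (adjusted p = 0.0574). The gene that fell, Kcnh5, was at 0.452 ± 0.113 and 0.166 ± 0.0539 CPM (-1.43, SE 0.30, adjusted p = 0.0142), a call lost with a term for Xist (0.0677) and in the fit with the replicate number as a block (0.0652). In Myc Kcnh5 averaged 0.251 CPM, below wildtype with no overlap (-0.86, SE 0.31, edgeR adjusted p = 0.999). It was too low for the naming rule and is named because it is the only fall. Of 9 two-pore channel genes edgeR, DESeq2 and limma-voom each called 0, with 0 at an unadjusted p under 0.05 by edgeR and a median of 0.12. Of all genes edgeR called 6.67%.

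The 20 partner and regulator genes of the tubular Kir channels had 0 rises and 3 falls, beside 4.06% and 2.61% of all genes. The median of the list was -0.08. Klhl3, the adaptor that sends WNK kinases for degradation, was at 9.29 ± 1.46 CPM in wildtype and 5.43 ± 0.576 in Grhl2KO_Myc with no overlap (log2 fold change -0.77, SE 0.14, edgeR adjusted p = 0.00665), and was called under all 21 alternatives. Wnk1, a kinase of that pathway, was at 254 ± 33.4 and 191 ± 11.2 CPM (-0.41, SE 0.095, adjusted p = 0.0253), and Casr, the calcium-sensing receptor of the thick ascending limb, at 10.9 ± 3.38 and 5.83 ± 0.642 CPM (-0.90, SE 0.23, adjusted p = 0.0394). Both overlapped between groups. Myc means were 8.82 CPM for Klhl3, 255 for Wnk1 and 11.4 for Casr. The call of Wnk1 was lost without wildtype 1, 2 or 3 or Grhl2KO_Myc 3 or 4 (adjusted p 0.0526 to 0.0786). That of Casr was lost without any 1 of the Grhl2KO_Myc libraries or of wildtype 1, 2, 3 and 5 (0.0554 to 0.111), without Myc 1 (0.057), with the proximal tubule score as covariate (log2 fold change -0.62, adjusted p = 0.0576) and with limma-voom (0.0824), and it held in 7 of 21 alternatives. With a term for Xist the adjusted p was 0.11 for Wnk1 and 0.123 for Casr.

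Among 16 salt transport genes that act beside these channels 0 rose and 2 fell by edgeR, beside 4.06% and 2.61% of all genes. The median of the list was -0.37, and DESeq2 and limma-voom called 7 and 4, all lower. Slc9a3, the sodium-proton exchanger of the proximal tubule and thick ascending limb, was at 13.7 ± 3.91 CPM in wildtype and 7.28 ± 1.65 in Grhl2KO_Myc (-0.91, SE 0.23, edgeR adjusted p = 0.0342). Fxyd2, a subunit of the sodium pump, was at 355 ± 38.5 and 274 ± 32.0 CPM (-0.37, SE 0.092, adjusted p = 0.0321). Both overlapped between groups, and both calls were lost without wildtype 1, 2, 3 or 5 or Grhl2KO_Myc 3 or 4, with adjusted p-values of 0.0666 to 0.104 for Slc9a3 and 0.063 to 0.0995 for Fxyd2. With a term for Xist the adjusted p was 0.111 for Slc9a3 and 0.102 for Fxyd2. Myc means were 11.6 CPM for Slc9a3 and 367 for Fxyd2. Distal convoluted tubule markers (10 genes, Klhl3 among them) had scores of -0.44 to -0.22 in Grhl2KO_Myc, -0.07 to 0.44 in wildtype and 0.13 to 0.19 in Myc. Their summed level was 517 to 750, 738 to 926 and 757 to 805 CPM, with no marker at 0. For Slc9a3, Fxyd2, Casr and Wnk1 the 3 libraries low in proximal tubule markers were the 3 lowest of the 12, as for 6.43% of all genes tested. For Klhl3 they were not, with 6.76 CPM in wildtype 4 and 5.07 in Grhl2KO_Myc 1. Without those 3 libraries the log2 fold changes over wildtype were -0.82 for Slc9a3, -0.30 for Fxyd2, -0.99 for Casr and -0.42 for Wnk1. The part of either set of markers in the falls of Klhl3, Wnk1, Casr, Slc9a3 and Fxyd2 was not tested.

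**Figure D5:**
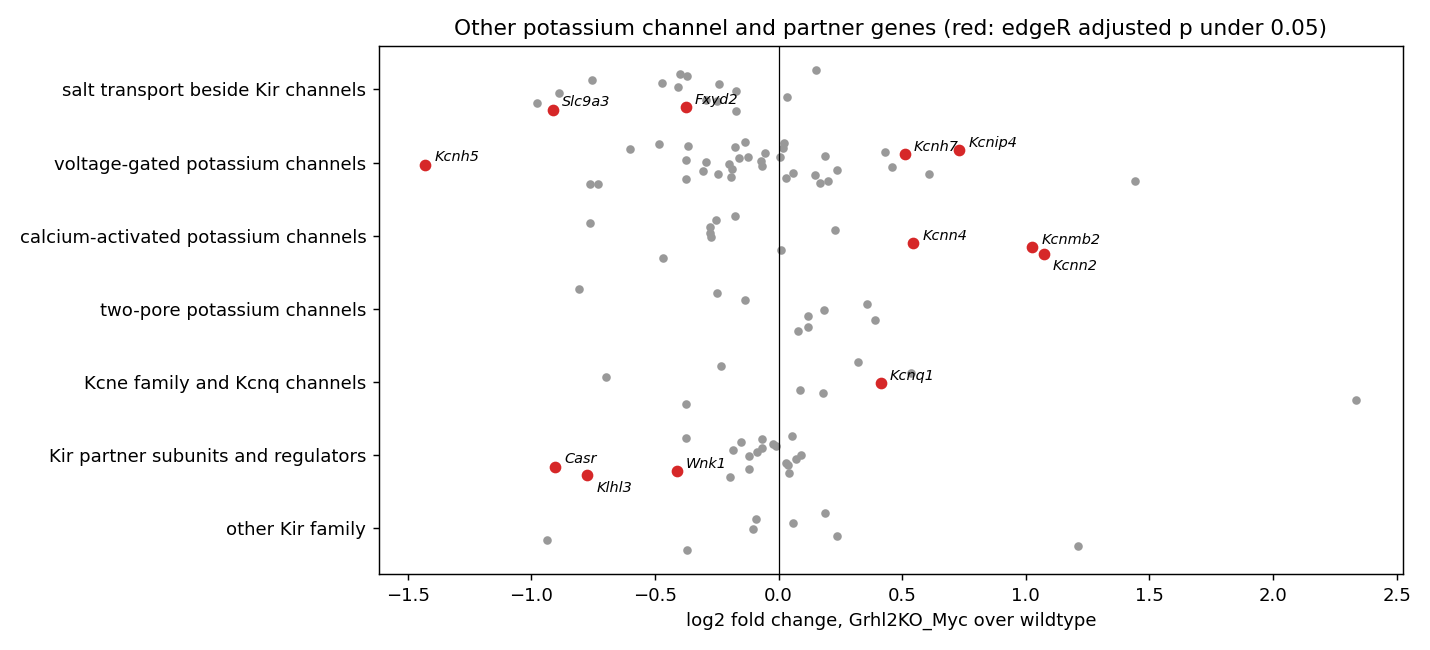
Log2 fold change of Grhl2KO_Myc over wildtype (x axis) for each tested gene of the 7 lists (rows), with the 12 genes at an edgeR adjusted p under 0.05 in red and named. The calcium-activated list holds 3 red points, all to the right of 0, while those of the partner and salt transport lists lie to the left. Of all genes edgeR called 6.67% in this comparison.

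The genes whose log2 CPM ran most closely with each channel gene over the 12 libraries were then listed, as a description, among 14004 genes of at least 1 CPM (14005 for Kcnj3). The libraries share the depth and cell makeup that move many genes at once. Kcnj16 was closest to Dpep1, Adhfe1 and Plscr2, with Pearson's r of 0.992, 0.988 and 0.987. Kcnj15 ran with Gk, Scpep1 and Asl (0.985, 0.984 and 0.982), Kcnj10 with Ftl2, Sirt3 and Cdk18 (0.963, 0.959 and 0.953), and Kcnj1 with Mertk, Prdx5 and Cldn10 (0.951, 0.950 and 0.946). Kcnj3 ran with Lrrc4b, Lppr1 and Slc29a1 (0.982, 0.973 and 0.971), Kcnj8 with Ehbp1, Stoml1 and Zfp90 (0.944, 0.934 and 0.929), and Kcne1 with Gaa, Gtpbp8 and St13 (0.921, 0.887 and 0.880). No gene appeared in more than 1 of these sets. Without the 3 libraries low in proximal tubule markers r with the closest gene was 0.959 for Kcnj16, 0.979 for Kcnj15, 0.933 for Kcnj10, 0.825 for Kcnj1, 0.967 for Kcnj3, 0.869 for Kcnj8 and 0.902 for Kcne1, and the lowest r of any pair was 0.767, for Kcnj8 and Zfp90. When the group means were first removed, the closest gene was Ctsh for Kcnj16 (0.996), Asl for Kcnj15 (0.990), Tmem52b for Kcnj10 (0.982), Cgref1 for Kcnj1 (0.957), Bcl2l1 for Kcnj8 (0.990), Zfhx2 for Kcnj3 (0.956) and Ttyh2 for Kcne1 (0.948).

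Several of these genes lie beside another channel gene in the genome (GENCODE M21, mm10). Kcnj10 is 11.9 kb from Kcnj9, Kcnj1 is 28.1 kb from Kcnj5, Kcnj16 is 38.2 kb from Kcnj2 and Kcne1 is 47.9 kb from Kcne2, whereas Kcnj15 is 259.9 kb from Kcnj6. Kcnj3 and Kcnj8 have no other gene of the family on their chromosomes. The neighbours differ widely in level: in wildtype Kcnj10 held 44.6 CPM beside 0.141 for Kcnj9, and Kcnj16 held 127 CPM beside 3.25 for Kcnj2.

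Since Grhl2 is a transcription factor, the promoters were searched for AACCGGTT, the palindrome bound by Grainyhead factors, for its looser form AACNNGTT, of which the first is one case, and for CACGTG, the palindrome bound by MYC. Windows ran from 250 bases before to 50 after each RefSeq start site (GRCm38.p6), both strands were covered because the motifs are palindromes, and 9 such windows were found for 6 of the 7 genes. AACCGGTT was in 0 of the 9 windows, and in 0.146% of all 32851 windows. CACGTG was in 0 of the 9, and in 7.15% of all. AACNNGTT occurred in 2 of the 9, and in 4.2% of all: at position -233 from the start site of Kcnj1, as AACTAGTT, and at position -133 from the second of 4 start sites of Kcnj16, as AACCAGTT. A match here is a run of letters and not a measured site. The 250 bases before the start are shown for those 2 windows, with the match in capitals, and for Kcnj3, the gene with the widest difference between genotypes, which holds none of the 3 motifs. They lie at chr9:32393735-32393984, chr11:110997237-110997486 and chr2:55435720-55435969, all on the plus strand, and the Kcnj1 and second Kcnj16 windows lie inside the gene bodies given above.
Kcnj1: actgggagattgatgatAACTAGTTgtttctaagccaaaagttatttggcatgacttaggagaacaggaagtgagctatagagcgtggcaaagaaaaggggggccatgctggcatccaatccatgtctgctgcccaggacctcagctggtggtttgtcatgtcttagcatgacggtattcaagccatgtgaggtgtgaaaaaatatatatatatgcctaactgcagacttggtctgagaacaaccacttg
Kcnj16, second start site: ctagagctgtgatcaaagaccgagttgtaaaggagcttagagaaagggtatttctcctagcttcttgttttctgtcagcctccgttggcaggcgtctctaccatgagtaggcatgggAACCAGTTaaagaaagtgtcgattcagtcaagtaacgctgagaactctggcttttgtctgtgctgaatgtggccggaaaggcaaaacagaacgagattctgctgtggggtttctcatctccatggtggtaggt
Kcnj3: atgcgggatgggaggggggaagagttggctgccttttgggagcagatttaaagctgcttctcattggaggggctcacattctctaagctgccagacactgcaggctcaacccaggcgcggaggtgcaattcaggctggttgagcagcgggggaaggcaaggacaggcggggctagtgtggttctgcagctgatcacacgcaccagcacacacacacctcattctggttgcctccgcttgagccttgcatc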

How the data were processed

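The labels' protocols give TruSeq libraries, a kit that does not mark strand, and the submitters' processing notes name HISAT2 and mm10. No source used here names the counting program or its annotation. Raw counts, deposited by the authors as a single table, are listed by gene beside exon widths, and 0 of its sample columns belonged to other samples. Groups came from the genotype labels.

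CPM were computed from the counts with TMM scaling in edgeR 4.0.16 (R 4.3.3). All 12 libraries entered 1 quasi-likelihood fit with a coefficient per group and edgeR's default filter, and 23742 genes were tested with Benjamini-Hochberg adjustment over all of them (threshold 0.05). Chi-square over degrees of freedom was 13.5 for the closest replicates, which is more than sampling noise gives, and each library counted once. The fit was tested on simulated data. Alternatives were other scalings, filters, covariates and fits, DESeq2 1.42.0, limma-voom (limma 3.58.1) and single libraries left out.

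The members and the gene lists were chosen with earlier results of these data known. All Kir genes were named, up to 4 called genes of at least 1 CPM per other list, and the 3 most similar genes of each member (log2 CPM, prior count 2); Abcc9 and Kcnh5 were added after their values were seen. Numbered gene models, pseudogenes, Y-linked genes, Xist and Tsix were left out of the similarity search, and other X-linked genes were kept. Promoter sequences come from RefSeq. Protein sequences were not used here.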

Additional observations from a re-analysis of the deposited data

Results flagged for a closer look

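In groups of 4 or 5 libraries, 4 of 56 checks (28 genes in the wildtype and Grhl2KO_Myc groups) found a library far from the rest of its group, and chance gives about 1 in 20. All 4 were in wildtype 4, which is low in proximal tubule markers. Kcnj8 at 43.3 CPM and Kcnn4 at 5.65 CPM were the highest of their group there, and Casr at 4.94 CPM and Klhl3 at 6.76 CPM the lowest. The part of the proximal tubule markers in these values was not tested.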

How the results depend on the processing

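The number of list genes called between Grhl2KO_Myc and wildtype, 12, was 6 with a term for Xist, 21 with DESeq2, and 7 to 28 with single libraries left out: 7 without wildtype 1, 2 or 3 or Grhl2KO_Myc 3 or 4, and 28 without wildtype 4. Between Grhl2KO_Myc and Myc, 0 became 3 with the score of proximal tubule markers as a covariate, 2 with only the groups compared, 9 with DESeq2, 1 with limma-voom, 3 without the 3 libraries low in proximal tubule markers, and 0 to 1 with single libraries left out (1 without Grhl2KO_Myc 1). Without those 3 libraries the log2 fold change of Kcnj3 over wildtype was 2.84 and that of Kcnj10 over Myc 0.13. Same-numbered libraries correlated at -0.11 to 0.23 in their deviations from group means (10 pairs), and differently numbered ones at -0.27 to 0.29 (37 pairs). These values show no pairing by replicate number, but so few pairs cannot exclude one. With the replicate block 10 genes were called between Grhl2KO_Myc and wildtype, and 0 in each other comparison. Depth limits Kcnj3 in wildtype, at 2 to 11 counts per library.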
